A study of Mus musculus with 6 samples.

Results

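The levels of 10 genes of the unfolded protein response were followed in the livers of mice fed a high-fat diet (HFD) with or without esculetin, a plant coumarin. They were the transcription factor gene Xbp1 and 9 genes whose products work in the endoplasmic reticulum (ER), namely Hspa5, Hsp90b1, Pdia4, Dnajb9, Manf, Sdf2l1, Creld2, Hyou1 and Herpud1. They were chosen by name as chaperone and related genes of the XBP1 and ATF6 branches. All 10 were found among the 55357 gene rows of the count table, and all 10 were among the 14433 genes that passed the filter on low counts.

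RNA sequencing of liver gave 6 libraries in 2 groups of 3, and each library held the livers of a pair of mice. The animals were wild-type male C57BL6/J mice of 8 to 9 weeks. Both groups were gavaged for 7 days, were kept on a control diet with 10% of its energy from fat for 4 days, and then ate a diet with 60% of its energy from fat for 3 days. The vehicle group received 2.5% Tween-80, and the esculetin group received esculetin at a dose that the annotations give both as 180 and as 90 mg/kg/d, so that no single dose is stated here.

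The ER folds the proteins that a cell secretes, and the hepatocyte, which makes most plasma proteins, carries a large secretory load. When unfolded proteins build up, the sensor IRE1 splices the Xbp1 mRNA so that it encodes an active transcription factor, and ATF6 moves to the Golgi, where it is cut into one. Both factors switch on genes for chaperones, folding enzymes and the machinery that removes misfolded proteins. The counts were taken per gene, so spliced and unspliced Xbp1 mRNA were not separated. In bulk liver, fewer cells of a type and less RNA per cell cannot be told apart.

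Promoters were searched on both strands for motifs that ATF6 and XBP1 are known to bind, over 250 bases before to 50 bases after each start in a RefSeq table of GRCm38.p6. The table held 8 of the 10 genes and did not hold Manf or Hyou1. The ER stress response element (ERSE), which is CCAAT, 9 bases of any kind and then CCACG, was found in 3 of these 8 promoters, those of Hspa5, Hsp90b1 and Creld2, and in 0.119% of all 32851 promoters. ERSE-II, which is ATTGG, 1 base of any kind and then CCACG, was found in the Herpud1 promoter and in 0.0365% of all promoters. The third motif, the unfolded protein response element (UPRE), was searched only as TGACG followed directly by TGG and was found in that form in 0 of the 8 and in 0.676% of all promoters. Forms of UPRE with another last base were not searched. Counted from the start, with -1 the base just before it, ERSE began at -65 in Hspa5, at -212 and again, on the other strand, at -107 in Hsp90b1, and at -126 on the other strand in Creld2, while ERSE-II began at -52 in Herpud1. A match is a description of these letters and not a binding site. The genes were chosen as genes of the XBP1 and ATF6 branches, whose factors bind these motifs. Their shares beside those of all promoters therefore depend on that choice and are not separate evidence. The 250 bases before the start are printed in the direction of each gene, with the fixed bases of the matches in capitals. Hspa5, Hsp90b1, Creld2 and Herpud1 are shown for their matches, and Dnajb9, which held no match in this window, because it was the gene with the largest difference between the groups.
Hspa5, chr2:34771840-34772089, plus strand: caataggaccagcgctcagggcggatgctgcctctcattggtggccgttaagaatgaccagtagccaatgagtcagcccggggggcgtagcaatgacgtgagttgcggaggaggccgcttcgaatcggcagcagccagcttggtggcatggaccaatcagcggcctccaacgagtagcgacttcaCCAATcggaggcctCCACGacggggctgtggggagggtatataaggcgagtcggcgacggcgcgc
Hsp90b1, chr10:86705445-86705694, minus strand: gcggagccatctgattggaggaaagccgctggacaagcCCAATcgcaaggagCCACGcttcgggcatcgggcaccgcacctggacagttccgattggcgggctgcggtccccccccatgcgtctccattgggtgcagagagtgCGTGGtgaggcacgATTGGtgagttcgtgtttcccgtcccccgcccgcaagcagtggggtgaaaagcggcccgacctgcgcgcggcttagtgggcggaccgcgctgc
Creld2, chr15:88819396-88819645, plus strand: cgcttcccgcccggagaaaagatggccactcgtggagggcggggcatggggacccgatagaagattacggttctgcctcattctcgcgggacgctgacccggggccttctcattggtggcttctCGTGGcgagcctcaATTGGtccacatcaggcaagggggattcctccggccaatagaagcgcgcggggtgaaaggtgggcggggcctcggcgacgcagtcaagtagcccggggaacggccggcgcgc
Herpud1, chr8:94386179-94386428, plus strand: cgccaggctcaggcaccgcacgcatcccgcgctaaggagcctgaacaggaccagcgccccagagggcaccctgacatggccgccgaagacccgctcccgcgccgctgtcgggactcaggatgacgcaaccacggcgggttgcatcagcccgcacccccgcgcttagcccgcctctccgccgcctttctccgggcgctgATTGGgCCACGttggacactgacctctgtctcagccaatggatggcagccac
Dnajb9, chr12:44210069-44210318, minus strand: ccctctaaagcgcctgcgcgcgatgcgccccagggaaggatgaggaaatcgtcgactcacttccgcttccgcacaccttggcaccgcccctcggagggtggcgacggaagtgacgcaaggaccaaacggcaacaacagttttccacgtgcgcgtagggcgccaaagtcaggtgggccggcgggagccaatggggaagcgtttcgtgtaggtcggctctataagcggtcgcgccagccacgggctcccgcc

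One of the 10 genes, Dnajb9, met the threshold for a call, which was a fold change over 1.5 together with p under 0.05 before adjustment, and it was higher with esculetin. The same rule called 3.13% of all genes tested, 1.37% as higher and 1.76% as lower. Herpud1 had the smallest p-value of the 10 but a fold change of 1.45, below the threshold. With it, 2 of 10 genes had an unadjusted p-value under 0.05, both higher with esculetin, where 6.53% of all genes did so in that direction. None of the 10 had an adjusted p-value under 0.05 (0 of 10, Benjamini-Hochberg over all genes tested, edgeR quasi-likelihood test), as had 0.0416% of all genes. The fitted difference was above 0 for 9 of 10 genes and for 48.5% of all genes, and the median log2 fold change was 0.25 over the 10 genes and -0.008 over all genes tested. The median of the 10 was 0.08 without esculetin library 1, 0.12 without vehicle library 1, and 0.43 without esculetin library 3 or without vehicle library 3.

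**Figure D1:**
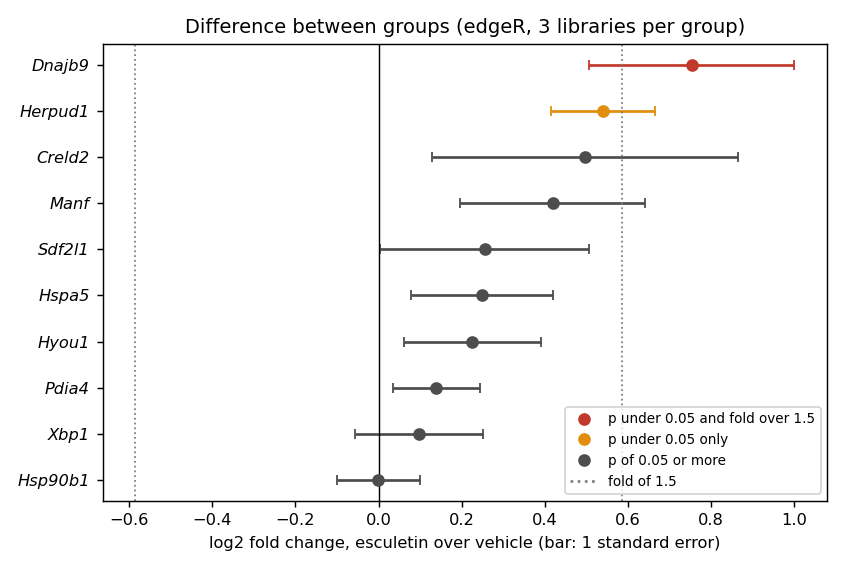
Log2 fold change of each gene, esculetin against vehicle, from the edgeR quasi-likelihood fit, with bars of 1 standard error. Dnajb9 at 0.75 and Herpud1 at 0.54 lie farthest to the right, and Hsp90b1 lies at 0.

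The libraries of a group differed from each other across most of these genes, so this is given before the single values. The libraries named were picked after the values of these genes were seen. Most of the genes also varied together, so the counts of genes are descriptions and not separate observations. Vehicle library 1 was the lowest of the 6 libraries for 10 of 10 genes, which held for 17% of all genes tested. Esculetin library 1 was the highest of the 6 for 9 of 10 genes, all but Xbp1, which held for 19.9% of all genes. Both held together for 9 of 10 genes and for 5.77% of all genes. Within the vehicle group, library 3 was the highest for 8 of 10 genes, and within the esculetin group, library 3 was the lowest for 8 of 10, where each held for 34.6% of all genes. After each gene was centred on its own mean of log2 CPM (CPM is the count scaled to the TMM-normalized library size), the mean over the 10 genes was -0.46, -0.11 and 0.10 in vehicle libraries 1, 2 and 3. It was 0.48, 0.13 and -0.13 in esculetin libraries 1, 2 and 3. Vehicle library 3 therefore stood above esculetin library 3, and the medians of all genes, centred alike, lay between 0.0034 and 0.01 in the 6 libraries. The genes made up 0.274% of the counts in vehicle library 1 and 0.434% in esculetin library 1, and 0.32% to 0.354% in the other libraries.

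**Figure D2:**
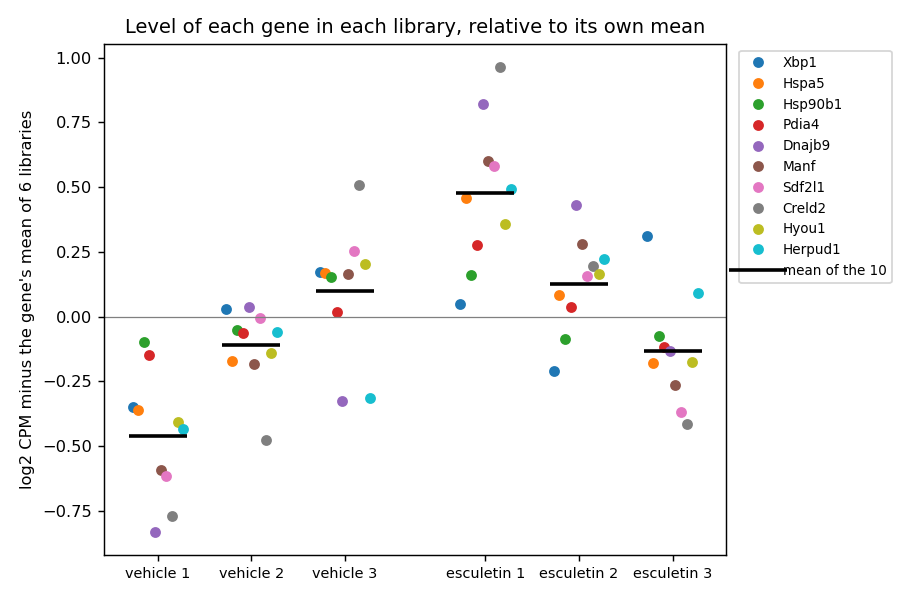
Level of each gene in each of the 6 libraries as log2 CPM minus the gene's own mean, with 1 point per gene and a black bar for the mean of the 10. The mean is lowest in vehicle library 1 at -0.46 and highest in esculetin library 1 at 0.48, and vehicle library 3 lies above esculetin library 3.

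Xbp1 (ENSMUSG00000020484, GRCm39 chr11:5470606-5483027), the transcription factor of the IRE1 branch, was measured at 163, 213 and 235 CPM in the vehicle libraries and at 216, 180 and 258 CPM in the esculetin libraries. The groups overlapped over most of their range. The means were 204 ± 36.5 and 218 ± 39.2 CPM (SD, n = 3 each), and the log2 fold change was 0.10 (SE 0.15, adjusted p = 0.848). Its exons share 22.0% of their bases with Ccdc117 on the opposite strand, which had 8320 counts in the 6 libraries, and whether the counting used strand is not stated. Xbp1 was also the gene least like the others across libraries. The correlation of its log2 CPM with the mean of the other 9 was r = 0.271 over 6 libraries, where the others had values from 0.72 to 0.982. These correlations are descriptions, since all the genes were read from the same libraries at the same depth.

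Hspa5 (ENSMUSG00000026864, chr2:34661982-34668880), which encodes the main HSP70 chaperone of the ER, also known as BiP, was measured at 951, 1083 and 1370 CPM in the vehicle libraries. It stood at 1677, 1292 and 1077 CPM in the esculetin libraries, so that the highest vehicle library exceeded 2 of the 3 esculetin libraries. The means were 1135 ± 214 and 1349 ± 304 CPM, and the log2 fold change was 0.25 (SE 0.17, adjusted p = 0.609). Rabepk, on the opposite strand, overlaps 44.2% of its exon bases and had 1474 counts in all 6 libraries, while Hspa5 had 27939 or more in each. Whether the counting used strand is not stated, and how reads over these bases were assigned was not measured, which also limits its level per length.

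Hsp90b1 (ENSMUSG00000020048, chr10:86526073-86541446), the HSP90 chaperone of the ER, had 660, 680 and 784 CPM with vehicle and 790, 665 and 669 CPM with esculetin. The means were 708 ± 66.8 and 708 ± 71.0 CPM, with a log2 fold change of -0.00016 (SE 0.10, adjusted p = 0.999). It was the steadiest of the 10 within groups together with Pdia4, and its highest library was 1.19 times its lowest in either group. Its promoter held ERSE at 2 places. Its difference between groups was the smallest of the 10, and whether motif matches go with such differences was not tested.

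Hyou1 (ENSMUSG00000032115, chr9:44290418-44303666), a large HSP70-related protein that helps Hspa5 exchange its nucleotide, had 147, 177 and 225 CPM with vehicle and 251, 219 and 173 CPM with esculetin. One esculetin library lay above all 3 vehicle libraries and the other two lay within their range. The log2 fold change was 0.23 (SE 0.16, adjusted p = 0.636).

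Dnajb9 (ENSMUSG00000014905, chr12:44252341-44257171), also known as ERdj4, a J-domain co-chaperone of Hspa5 that holds back the sensor IRE1, was the gene called. It had 73.2, 134 and 104 CPM in the vehicle libraries and 230, 176 and 119 CPM in the esculetin libraries. The groups overlapped at one point, since vehicle library 2 stood above esculetin library 3. The means were 104 ± 30.2 and 175 ± 55.5 CPM, a fold change of 1.69 and a log2 fold change of 0.75 (SE 0.25, unadjusted p = 0.0126, adjusted p = 0.284). It was called in 9 of 9 alternative fits that used all 6 libraries, with log2 fold changes from 0.73 to 0.76. Without esculetin library 1 the log2 fold change was 0.51 (unadjusted p = 0.0582), and without vehicle library 1 it was 0.56 (unadjusted p = 0.0412), a fold change below 1.5.

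Sdf2l1 (ENSMUSG00000022769, chr16:16948002-16950252), an ER-resident protein that works with Hspa5 and its J-domain partners, was the least abundant of the 10 in CPM. It had 13.4, 20.5 and 24.5 CPM with vehicle and 30.9, 22.9 and 15.9 CPM with esculetin. The groups overlapped, and the log2 fold change was 0.26 (SE 0.25, adjusted p = 0.740). Its smallest count, 394 in vehicle library 1, has a counting error of 5.04%, which is small beside the 1.83-fold range of its vehicle libraries.

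Pdia4 (ENSMUSG00000025823, chr6:47770077-47790462), a protein disulfide isomerase that forms and rearranges disulfide bonds in new proteins, had 183, 194 and 205 CPM with vehicle and 246, 208 and 187 CPM with esculetin. Here 2 esculetin libraries stood above all vehicle libraries and one stood among them. The log2 fold change was 0.14 (SE 0.10, adjusted p = 0.645).

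Manf (ENSMUSG00000032575, chr9:106715511-106769727), an ER protein that binds Hspa5 and can be secreted under stress, had 69.7, 92.7 and 118 CPM with vehicle and 159, 128 and 87.5 CPM with esculetin. In this gene 2 esculetin libraries exceeded all vehicle libraries, and the remaining one lay below 2 of the 3. The log2 fold change was 0.42 (SE 0.22, unadjusted p = 0.0896, adjusted p = 0.496). Rbm15b shares 32.6% of the exon bases of Manf on the same strand and had 3089 counts in the 6 libraries, and Dcaf1 shares 6.36% on the opposite strand and had 5757 counts. How reads in shared exons were counted is not stated, so the counts of Manf, 2048 to 5133 per library, are uncertain by an amount that was not measured. It was called when esculetin library 3 or vehicle library 3 was left out, with a log2 fold change of 0.62 in either case (unadjusted p = 0.00972 and 0.0218).

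Creld2 (ENSMUSG00000023272, chr15:88703795-88710890), which encodes an ER-stress-inducible protein that acts on disulfide bonds, varied most within groups. It had 22.4, 27.5 and 54.5 CPM with vehicle and 74.7, 43.8 and 28.6 CPM with esculetin. The highest library was 2.43 times the lowest in the vehicle group and 2.61 times the lowest in the esculetin group. The log2 fold change was 0.50 (SE 0.37, adjusted p = 0.642), and the groups overlapped. It was called without vehicle library 3, at 0.98 (unadjusted p = 0.0162), and its log2 fold change ranged from 0.06 to 0.98 with one library left out. Its SD within groups, 0.681 in log2 CPM, was larger than that of 99.4% of genes with at least 10 CPM. The median SD was 0.292 over the 10 genes and 0.117 over those genes.

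Herpud1 (ENSMUSG00000031770, chr8:95113022-95123141), a membrane protein of the ER-associated degradation (ERAD) machinery, was the only one of the 10 whose groups did not overlap. It had 400, 518 and 434 CPM in the vehicle libraries and 760, 629 and 575 CPM in the esculetin libraries. Groups that did not overlap, with esculetin higher, were seen for 9.2% of all genes tested, and with esculetin lower for 8.24%. The means were 451 ± 60.6 and 655 ± 95.4 CPM, and the log2 fold change was 0.54 (SE 0.13, unadjusted p = 0.00166, adjusted p = 0.170). The unadjusted p-value was at most 0.00362 in the fits with all 6 libraries and at most 0.00664 with any one library left out. The fold change passed 1.5 without esculetin library 3 or vehicle library 2, at log2 fold changes of 0.63 and 0.65 (unadjusted p = 0.000959 and 0.000876).

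**Figure D3:**
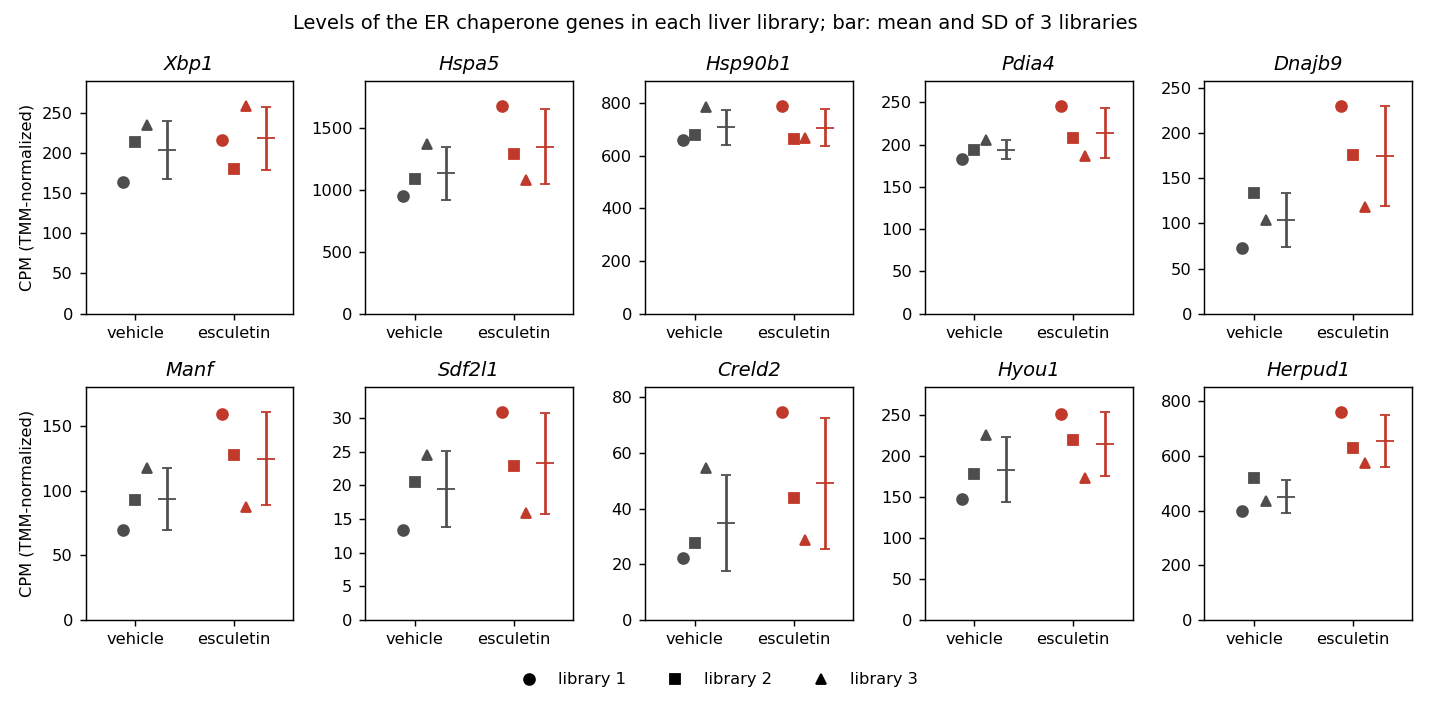
Level of each gene in CPM in the 3 vehicle and 3 esculetin libraries, with 1 point per library and the mean with its SD, on axes that start at 0. Herpud1 is the only gene whose esculetin points, at 575 to 760 CPM, all lie above its vehicle points, at 400 to 518 CPM.

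Dnajb9 and Herpud1 were also read against Hsp90b1 in the same library, a comparison chosen after their values were seen. Since Hsp90b1 had a log2 fold change near 0, the ratios restate the differences of Dnajb9 and Herpud1 and are given as a description. The ratio of Herpud1 to Hsp90b1 was 0.606, 0.761 and 0.554 with vehicle and 0.963, 0.947 and 0.859 with esculetin, with no overlap. The ratio of Dnajb9 to Hsp90b1 was 0.111, 0.196 and 0.133 with vehicle and 0.291, 0.264 and 0.177 with esculetin, and here the groups overlapped. Every esculetin library thus exceeded every vehicle library in the ratio of Herpud1, and 2 of 3 did so in that of Dnajb9.

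**Figure D4:**
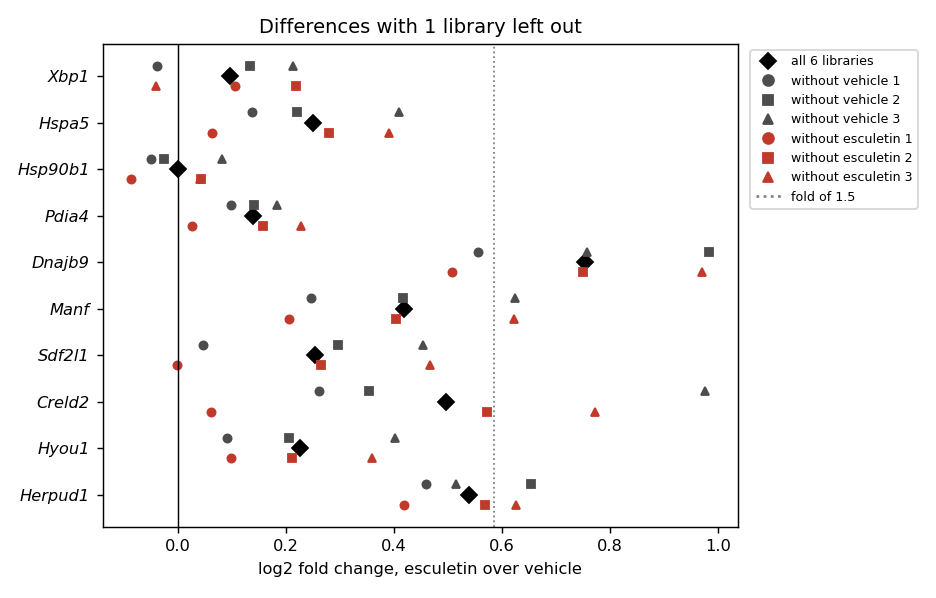
Log2 fold change of each gene with all 6 libraries (diamond) and with each library left out in turn, with a dotted line at a fold change of 1.5. Herpud1 stays between 0.42 and 0.65 when one library is left out, whereas Creld2 ranges from 0.06 to 0.98.

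Vehicle library 1 and esculetin library 1 were also left out together, a choice made after the libraries had been compared on these genes. Since they were the lowest vehicle library for all 10 genes and the highest esculetin library for 9, the differences had to become smaller, and the values only describe the other 4 libraries. In those, 0 of 10 genes were called and the median log2 fold change was -0.03, with Dnajb9 at 0.31, Herpud1 at 0.34 and the rest between -0.21 (Sdf2l1) and 0.03 (Manf). All 3 esculetin libraries were sequenced more deeply than the vehicle libraries, with totals of 32883985, 34920922 and 33360275 counts against 28825363, 31889710 and 27957713. They also had a lower share of mitochondrial counts, at 7.16%, 7.26% and 6.87% against 7.62%, 7.42% and 7.31%. Within the groups, neither vehicle library 1 nor esculetin library 1 was the deepest, and vehicle library 1 had the highest mitochondrial share of the 6. Thinned to the smallest total, Dnajb9 was still the 1 of 10 genes called, and the part of RNA quality in these differences was not tested.

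The levels of the genes followed were also compared with each other per length, as FPKM. FPKM is the CPM divided by the length in kilobases of the union of each gene's exons. Other comparisons of level between genes used CPM, which is not corrected for length. In the vehicle group Hspa5 was the highest at 204 ± 38.6 FPKM, above Herpud1 at 116 ± 15.6 and Hsp90b1 at 116 ± 10.9 FPKM, which did not differ beyond their spread. Xbp1, Pdia4, Dnajb9, Hyou1, Sdf2l1 and Creld2 followed, with means from 29.4 down to 15.8 FPKM, and each overlapped its neighbour in this order. Manf was the lowest at 7.68 ± 1.99 FPKM on this scale and did not overlap Creld2. With esculetin, Herpud1 had 169 ± 24.6 FPKM and Dnajb9 41.9 ± 13.3 FPKM, against 243 ± 54.7 FPKM for Hspa5. The order depended on the length used. Divided by the longest transcript instead, Hsp90b1 stood at 217 FPKM in the vehicle group, close to Hspa5 at 227 FPKM and above Herpud1 at 143 FPKM. On that scale Manf stood at 15.5 FPKM, close to Creld2 at 16.1 and Sdf2l1 at 17.5 FPKM.

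Other genes of the pathway were read from lists by role. Among the sensors and the factors that process or act directly below them, 0 of 7 genes were called, and the median log2 fold change was -0.05. Ern1, which encodes IRE1, had a log2 fold change of -0.05, Atf6 of 0.01 and Eif2s1, the target of the sensor PERK, of -0.08. Among 22 other chaperones and folding enzymes of the ER lumen, 0 were called, and the median was -0.00064. The most abundant of these were P4hb, a disulfide isomerase (log2 fold change 0.06), Calr, the lectin chaperone calreticulin (-0.09), and Pdia3, its disulfide isomerase partner (0.12). In this list 1 gene, Fkbp2, had an unadjusted p-value under 0.05, with a log2 fold change of 0.32, where 11.9% of all genes had one in either direction.

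Of 18 other ERAD genes, 1 was called. Derl3, a membrane protein of the ERAD channel, fell by 0.73 on the log2 scale (unadjusted p = 0.0381, adjusted p = 0.389), from 1.39, 2.24 and 2.66 CPM to 1.24, 1.498 and 1.04 CPM, and the groups overlapped. The call of Derl3 was lost with limma-voom (unadjusted p = 0.0535), and without esculetin library 1 or 3 or vehicle library 2 or 3, where the unadjusted p was 0.0742 to 0.153. Vcp, the ATPase that extracts substrates, and Os9, a lectin, both abundant, had log2 fold changes of -0.01 and 0.03. The highest log2 fold changes of the list were those of Syvn1, a ubiquitin ligase of ERAD (0.40, SE 0.19), and Ube2g2, a ubiquitin-conjugating enzyme (0.35, SE 0.15, unadjusted p = 0.0366). Of 25 genes of translocation into the ER and export from it, 0 were called, and the median was 0.08. The most abundant were Ssr3 of the translocon-associated complex (0.05), the cargo receptor Lman1 (0.04) and the translocon partner Sec63 (-0.07).

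In the PERK and ATF4 branch, which lowers translation and supports amino acid supply, 15 of 17 genes were tested and 2 were called in opposite directions. Cebpb, the transcription factor C/EBPβ, rose from 24.9, 35.6 and 30.2 CPM to 53.7, 43.4 and 40.3 CPM, with no overlap (log2 fold change 0.60, SE 0.14, unadjusted p = 0.00211, adjusted p = 0.175). Asns, asparagine synthetase, fell by 1.35 on the log2 scale (SE 0.40, unadjusted p = 0.00712, adjusted p = 0.246), from 1.77, 2.05 and 3.28 CPM to 1.49, 0.576 and 0.716 CPM. The most abundant genes of this branch were Shmt2 (0.15), Atf5 (-0.16) and Atf4 (0.02), and the median was 0.13. Cebpb was no longer called without esculetin library 1 or without vehicle library 1, each with a log2 fold change of 0.47 (unadjusted p = 0.00885 and 0.0075), nor with scaling by total counts (0.57).

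Of 16 chaperones of the cytosol and mitochondria, 1 was called, the small heat shock protein gene Hspb1, which rose from 4.25, 3.99 and 5.94 CPM to 6.68, 8.53 and 6.42 CPM (log2 fold change 0.61, SE 0.19, unadjusted p = 0.0108, adjusted p = 0.265). The call of Hspb1 was lost with thinned counts (0.58) and without esculetin library 2, vehicle library 1 or vehicle library 2 (0.47, 0.54 and 0.50). The most abundant was Hspa8, the constitutive HSP70 of the cytosol, with a log2 fold change of 0.33 (unadjusted p = 0.0158), followed by Hsp90ab1 (0.05) and the mitochondrial Hspa9 (0.11). The log2 fold change was above 0 for 15 of these 16 genes (48.5% of all genes tested), with a median of 0.11. Of the 16, 4 had an unadjusted p-value under 0.05, all of them higher with esculetin (6.53% of all genes), and 5 had groups that did not overlap, with esculetin higher (9.2% of all genes). Of 17 clock genes tested, listed because ER chaperone genes vary over the day in liver, 0 were called, and the median was -0.05. The most abundant were Tef (-0.01), Nr1d2 (-0.06) and Bhlhe40 (-0.21). The time of day at which each liver was taken is not in the annotations, and its part in the differences between libraries was not tested.

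**Figure D5:**
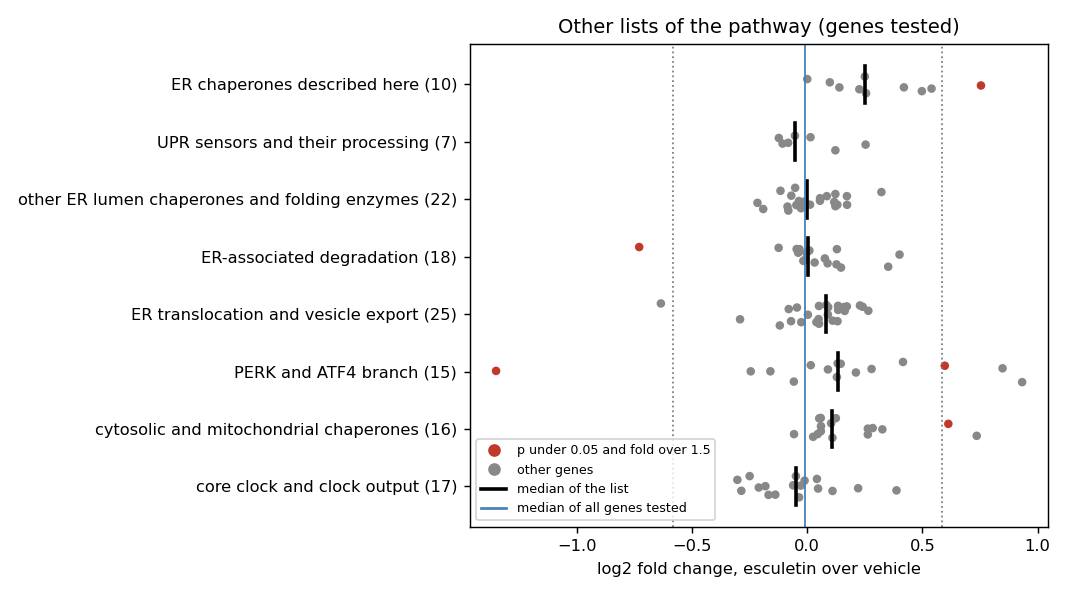
Log2 fold change, esculetin against vehicle, of every tested gene of the 10 and of each list by role, with 1 point per gene and a bar at the median. The median is 0.25 for the 10 genes and lies between -0.05 and 0.13 for the 7 lists.

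The order of the libraries was also counted in these lists, and differences between lists were not tested. Vehicle library 1 was the lowest and esculetin library 1 the highest of the 6 for 4 of the 22 other ER lumen genes (Hspa13, Pdia3, Pdia5 and Cnpy2), for 6 of 18 ERAD genes (Syvn1, Derl1, Edem1, Os9, Selenos and Ube2g2) and for 7 of 25 translocation and export genes. It was so for 4 of 15 genes of the PERK and ATF4 branch, 1 of 17 clock genes, 0 of 16 chaperones of the cytosol and mitochondria and 0 of 7 sensors, and for 525 of 7224 genes with at least 10 CPM. By the median correlation with the mean of the 10, the chaperones of the cytosol and mitochondria (r = 0.446) nevertheless lay between the ERAD genes (0.418) and the other ER lumen genes (0.472). The median was 0.687 for translocation and export, 0.534 for the PERK and ATF4 branch, 0.108 for the sensors, -0.306 for clock genes and 0.0568 for the 7224 genes. The genes most like the mean of the 10 across the 6 libraries, out of those 7224, were Nme1, a nucleoside diphosphate kinase (r = 0.9945), Pex2, a peroxisome assembly factor (0.9856), and Gfpt1, the entry enzyme of hexosamine synthesis (0.9856). The next were Sec61g, a subunit of the ER translocon (0.9822), and Rack1, a ribosomal scaffold protein (0.9808). With 6 libraries and this many genes ranked, such values describe these libraries alone.

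The tissue was checked against cell type markers. The 8 hepatocyte markers summed to 89480 to 93510 CPM with vehicle and 86070 to 92850 CPM with esculetin. Of the markers of other secretory cells, 9 of 11 pancreatic acinar markers were at 0 in all libraries (Cpa1, Cela3b, Ctrb1, Prss1, Prss2, Pnlip, Cel, Amy2a5 and Clps), with sums of 18.6 to 25.7 CPM with vehicle and 16.2 to 25.9 CPM with esculetin, and 9 B cell and plasma cell markers together summed to 8.18 to 14.04 CPM. The highest of these sums, 14.04 CPM, was in esculetin library 1, where the 10 genes were highest, and vehicle library 1 had 9.60 CPM. The acinar sum was also highest in esculetin library 1 (25.9 CPM), and the stellate sum was lowest there (314 CPM). Of the remaining lists, Kupffer cell markers summed to 308 to 411 CPM with vehicle and 316 to 324 CPM with esculetin, endothelial markers to 206 to 255 and 224 to 254 CPM, and stellate cell markers to 351 to 423 and 314 to 424 CPM. Cholangiocyte markers summed to 39.7 to 80.8 and 30.7 to 45.9 CPM, T cell, NK cell and neutrophil markers to 4.69 to 6.78 and 3.80 to 8.86 CPM, highest in esculetin library 1, with Ly6g at 0, and adipocyte markers to 0 to 0.612 and 0.893 to 1.19 CPM with Lep and Retn at 0. Of all these markers Des, Cd79a, S100a9 and Cfd were called as higher and Spp1 and Cela2a as lower. The markers tested were 8 for hepatocytes, 8 for Kupffer cells, 7 endothelial, 7 stellate and 5 for cholangiocytes. A further 7 were for B and plasma cells, 6 for T cells, NK cells and neutrophils, 2 acinar and 1 for adipocytes. The same rule called 3.13% of all genes tested. The part of cell composition in the results was not tested.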

How the data were processed

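The authors extracted liver RNA with Trizol, prepared libraries with the NEBNext Ultra kit, aligned paired-end reads to GRCm39 with HISAT2 2.2.1 and counted reads per gene with featureCounts. The deposited values are whole-number counts without normalization. Annotation release, strand use and handling of multi-mapping reads are not given in the sources used here. Gene symbols, positions and exon lengths came from a GENCODE annotation of GRCm39 that matched 54749 of the 55357 gene identifiers, and promoter sequences from a RefSeq table of GRCm38.p6.

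Library totals were 27957713 to 34920922 counts. Genes were kept with filterByExpr, normalized by TMM and tested with edgeR 4.0.16 (R 4.3.3, quasi-likelihood test), with Benjamini-Hochberg adjustment over the 14433 genes tested. Calls needed a fold change over 1.5 and p under 0.05 before adjustment, the thresholds of the study, which names limma and does not state whether p was adjusted. Standard errors were derived from the log2 fold change and its F statistic. Likeness between genes used log2 CPM with a prior count of 2. Alternatives used limma 3.58.1, DESeq2 1.42.0, other scalings and filters, thinned counts, the replicate number as a block, and each library left out.

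The 10 genes and the lists were chosen with earlier results of these data known, so their counts are descriptions. The genes named are the 10, and from each list every gene called and the 3 with the highest mean CPM. One gene that this rule names is not reported here. Any other gene was named with its values in view. Replicate pairs of a group differed by 26.2 to 67.1 in chi-square per gene, so no library copied another. Each library pools a pair of mice, and p-values measure the spread between such pools.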

Additional observations from a re-analysis of the deposited data

How the results depend on the processing

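Over all genes, 452 were called, against 1711 by the p-value alone, 6 by the adjusted p-value and 776 with no filter on low counts. Among the 10 genes, 1 was called, against 2 by the p-value alone, 0 by the adjusted p-value, 0 to 3 with one library left out and 0 without vehicle library 1 and esculetin library 1. The call of Dnajb9 was lost without esculetin library 1 and without vehicle library 1. DESeq2 gave Herpud1 an adjusted p of 0.00424, in a fit where 193 genes passed that threshold. With no filter on low counts the adjusted p of edgeR was 1.98e-05 for Herpud1, 9.12e-07 for Dnajb9, 0.0179 for Manf and 0.0456 for Creld2, in a fit where 477 genes passed, and the cause was not tested. By the p-value alone the calls were 1 for other ER lumen genes, 2 for ERAD, 2 for translocation and export, 4 for chaperones of the cytosol and mitochondria and 2 for clock genes. By the adjusted p-value they were 0 for ERAD, for the PERK and ATF4 branch and for chaperones of the cytosol and mitochondria. The single ERAD call was lost with limma-voom (0), and leaving out one library gave 0 to 1, where the one without esculetin library 3 was Syvn1, higher, and not Derl3. In the PERK and ATF4 branch the 2 calls became 1 with total counts, 4 with no filter, 1 to 4 with one library left out and 1 without vehicle library 1 and esculetin library 1. Among chaperones of the cytosol and mitochondria the 1 call became 2 with limma-voom, 2 with no filter, 0 with thinned counts and 0 to 2 with one library left out, and the median ranged from 0.0755 to 0.26. With one library left out, clock genes had 0 to 1 calls and medians from -0.18 to -0.0107. The median of translocation and export genes was -0.0068 without vehicle library 1 and esculetin library 1. With 1 mismatch allowed, ERSE was found in 5 of 8 promoters, adding Pdia4 and Herpud1, and in 1.5% of all promoters. Among the 10 genes and the genes named from the lists by role, no value called in the comparison of all 6 libraries changed sign. The last residues of the proteins were not run, since no protein table was used here.

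With the replicate number as a block, 1 of the 10 genes was called, Dnajb9 at 0.74 (unadjusted p = 0.0188), Herpud1 stood at 0.54 (unadjusted p = 0.00362), and the ERAD count fell from 1 to 0 (Derl3, unadjusted p = 0.0582). The 3 same-numbered pairs had a mean correlation of deviations of -0.026, so no pairing by number was seen. Whether such libraries shared a day or a batch was not tested. Over all genes the block gave 399 calls. At this depth counting error was small for the 10 genes, and the spread between 3 pools per group limits the precision.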

Other observations

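Some genes ran opposite to the 10 ER genes across the 6 libraries, and they were chosen after their values were seen. Among the 7224 genes with at least 10 CPM, the lowest correlations with the mean of the 10 were those of Acvr2a, an activin receptor (r = -0.988), Arhgap35 (-0.9875), Cabyr (-0.9816), Chuk, a kinase of the NF-κB pathway (-0.9788), and Lzts3 (-0.9761). Cabyr had 26.3, 16.9 and 10.6 CPM in vehicle libraries 1, 2 and 3 and 4.88, 7.86 and 14.7 CPM in esculetin libraries 1, 2 and 3, so that it was highest in vehicle library 1 and lowest in esculetin library 1. Cyp3a11, a major drug-metabolizing cytochrome P450 of hepatocytes, had r = -0.8886. It is 1 of the 8 hepatocyte markers and was picked with its values in view, and the others are not given singly here. Its levels were 845, 739 and 458 CPM with vehicle and 342, 605 and 907 CPM with esculetin. The highest level was thus in esculetin library 3 and the lowest in esculetin library 1. The sum of the 8 hepatocyte markers did not run this way, with 91920 CPM in vehicle library 1 and 92850 CPM in esculetin library 1. Cyp3a11 is a small part of that sum, which therefore cannot show whether single markers followed it. These correlations over 6 libraries share depth and library with the genes they are compared with and are given without a test.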
